A study of Mus musculus with 8 samples.

Results

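The CCR4-NOT complex is the main cytoplasmic machine that shortens the poly(A) tails of mRNAs. The messages that encode 10 of its subunits (Cnot1, Cnot2, Cnot3, Cnot4, Cnot6, Cnot6l, Cnot7, Cnot8, Cnot10 and Cnot11) were followed here on polysomes of the mouse main olfactory epithelium. These genes were chosen by symbol, as the rows of the deposited expression table that carry these names, and make up 10 of its 21765 rows. They were selected because MEX3 proteins bring the complex to the mRNAs they bind, and the study removed Mex3a. All 10 passed the minimum mean level of 1 transcript per 1000000 (TPM) that admitted 16097 genes to testing. TPM divides reads by a length taken for each gene. Levels of different genes are set side by side on that scale, and their order rests on the lengths used. These lengths are not given in the sources used here.

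Polysome RNA was sequenced in 8 libraries, 2 in each of 4 groups: WT early, WT late, cKO early and cKO late. Control (WT) mice were Mex3a flox/flox or Mex3a flox/+ without Cre, and conditional knockout (cKO) mice were Mex3a flox/flox with Cre, which deletes the floxed gene only in cells with a history of Cre. The labels give no age or sex and do not say how many animals went into a lysate. All tissue received 100 µg/mL of cycloheximide, which holds ribosomes on their messages, at dissection. Lysates were spun through sucrose, and of about 42 fractions of 350 µL, fractions 27 to 34 became the early pool (lighter polysomes) and fractions 35 to 42 the late pool (heavier polysomes). Library names give each early library and 1 late library the same lysate, so there were 4 lysates, 2 per genotype. Nothing in the labels says that the lysates came from separate animals, so p-values measure the spread between these samples, which may be technical.

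In the complex, CNOT1 is the long scaffold on which the other subunits assemble. CNOT2 and CNOT3 form a module on its C-terminal part, CNOT10 and CNOT11 a module on its N-terminal part, and CNOT9 a docking site for adaptors near the middle. Poly(A) is removed by 2 nuclease subunits at a time: CNOT7 or CNOT8, which bind the scaffold directly, and CNOT6 or CNOT6L, which bind through CNOT7 or CNOT8. CNOT4 is a ubiquitin ligase that is loosely attached in mammals. Adaptor proteins such as the MEX3 family, which pair RNA-binding KH domains with a RING finger, bring the complex to particular messages, where it represses translation and starts decay.

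The nuclease subunits come as 2 pairs of paralogs that replace each other in the complex. The stretches below, from the coding sequences of GENCODE M21 on GRCm38, are shown because the messages of each pair are related in sequence and their values on the gradient are compared further on. Capitals mark the longest run of identical bases in the alignment of each pair, 20 nt in both pairs. Positions count from the A of the start codon and span 433 to 512 in Cnot7 and Cnot8, 1270 to 1349 in Cnot6 and 1264 to 1343 in Cnot6l.
Cnot7: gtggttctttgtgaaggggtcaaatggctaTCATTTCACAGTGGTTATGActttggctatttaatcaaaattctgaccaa
Cnot8: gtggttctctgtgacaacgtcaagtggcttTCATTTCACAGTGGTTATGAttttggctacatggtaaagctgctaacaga
Cnot6: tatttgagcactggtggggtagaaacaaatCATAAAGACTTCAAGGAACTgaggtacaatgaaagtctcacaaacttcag
Cnot6l: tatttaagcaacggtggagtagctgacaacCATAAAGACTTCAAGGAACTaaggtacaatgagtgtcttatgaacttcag
Over their aligned coding bases, Cnot7 and Cnot8 were 70.8% identical (855 nt) and Cnot6 and Cnot6l 73.3% identical (1650 nt). A read longer than 20 nt cannot lie wholly within a shared run of these coding sequences. The untranslated parts were not compared. How reads that match both genes of a pair were counted is not given in the sources used here.

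Mex3a itself measured 97.4 and 116 TPM in early and 93.2 and 95.6 TPM in late polysomes of WT, and 13.9 and 19.8 TPM in early and 11.1 and 13.8 TPM in late polysomes of cKO. The cKO libraries lay below the WT libraries in both fractions, with a log2 change of -2.55 in early (SE 0.18; limma adjusted p = 0.00459) and of -2.80 in late polysomes (SE 0.18; adjusted p = 0.00282). The title of WT early replicate 2 names it WT, while its genotype label is that of the cKO mice. It held the 116 TPM of Mex3a and was treated as WT. Without it, the change of Mex3a in early polysomes was -2.43 (SE 0.22; limma adjusted p = 0.0466). Whole reads inferred from the TPM steps summed to between 7776792 reads (cKO late replicate 2) and 12771079 reads (WT late replicate 2) per library, and each subunit was backed by 256 to 3899 reads in a library. Counting error alone is thus at most 6.25% of a subunit's value. Markers of mature olfactory neurons, the main neurons of the labelled tissue (8 of 8 in the table), summed to between 8735 and 10792 TPM in early and between 7066 and 8565 in late libraries. Sustentacular cell markers (4 of 4) summed to between 1429 and 2121 TPM in early and between 5635 and 6544 in late libraries, gland markers (3 of 4) to between 4052 and 7961 and between 9664 and 16406, and stroma and vessel markers (4 of 4) to between 7529 and 12755 and between 13498 and 17869. Globose basal cell markers (7 of 7) summed to between 246 and 291 TPM in early and between 366 and 396 in late libraries, and horizontal basal cell markers (3 of 3) to between 34.9 and 51.1 and between 68.5 and 80.1. The neuron sums were thus lower and the other 5 of these sums higher in late libraries, with no overlap. Gene by gene, 6 of 8 neuron markers were higher and 2 lower in late polysomes by limma on average over genotypes (median log2 change 0.48). Over all tested genes, 34.3% were higher and 34.6% lower. The sums weigh abundant genes such as Omp (2439 to 5393 TPM) most. Sums of immature neuron, ensheathing glia, and blood and immune markers overlapped between fractions. No marker of these lists was at 0. Early and late pools came from the same lysates, and so from the same cells. These sums thus do not compare cell numbers between fractions. Whether these shifts bear on the results on fractions below was not tested. Between genotypes, fewer cells of a type and less RNA per cell cannot be told apart in whole tissue.

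All 10 subunits were detected in every library, at levels between 12.5 TPM (Cnot4) and 111 TPM (Cnot3). In the WT early group, mean TPM (± SD, n = 2) ran from 94.8 ± 10.5 for Cnot8, 73.1 ± 9.87 for Cnot7, 68.4 ± 6.32 for Cnot3 and 64.2 ± 6.08 for Cnot6, through 53.2 ± 10.9 for Cnot1, 50.1 ± 1.99 for Cnot2, 49.2 ± 6.39 for Cnot6l and 44.4 ± 1.21 for Cnot11, to 29.4 ± 3.49 for Cnot10 and 14.4 ± 0.783 for Cnot4. Most of this order was not resolved: in 6 of 9 neighbouring pairs, from Cnot7 down to Cnot11, the 2 libraries of one gene overlapped those of the next. On the TPM scale, Cnot8 stood above all others, and Cnot10 and Cnot4 stood below. This order also rests on the length by which each gene's reads were divided. The cKO early order also opened with Cnot8 (86.9 ± 3.80 TPM) and Cnot7 (81.0 ± 4.10) and closed with Cnot10 (26.9 ± 1.58) and Cnot4 (13.2 ± 1.03), with overlap in 2 of 9 neighbouring pairs.

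The order changed in the heavier polysomes. In WT late, Cnot1 (107 ± 0.918 TPM) and Cnot3 (107 ± 2.55) came first and overlapped, followed by Cnot8 (91.8 ± 1.16), Cnot2 (73.3 ± 5.08) and Cnot10 (50.1 ± 1.86), each separate from the gene before it. Cnot6l (43.8 ± 0.0705), Cnot11 (43.6 ± 5.94), Cnot7 (42.5 ± 1.60) and Cnot6 (41.3 ± 3.21) overlapped in sequence, and Cnot4 (16.8 ± 0.306) was lowest. Overlap held in 4 of 9 pairs in WT late and in 5 of 9 pairs in cKO late, where Cnot3 (100.2 ± 15.0 TPM), Cnot1 (90.2 ± 5.09) and Cnot8 (86.1 ± 5.48) led. Cnot4 had the lowest mean TPM in all 4 groups. In inferred reads, which are not divided by length, it was close to Cnot10. Cnot4 had 520 reads and Cnot10 461 in WT early replicate 1, and 518 and 616 in WT late replicate 1.

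**Figure D1:**
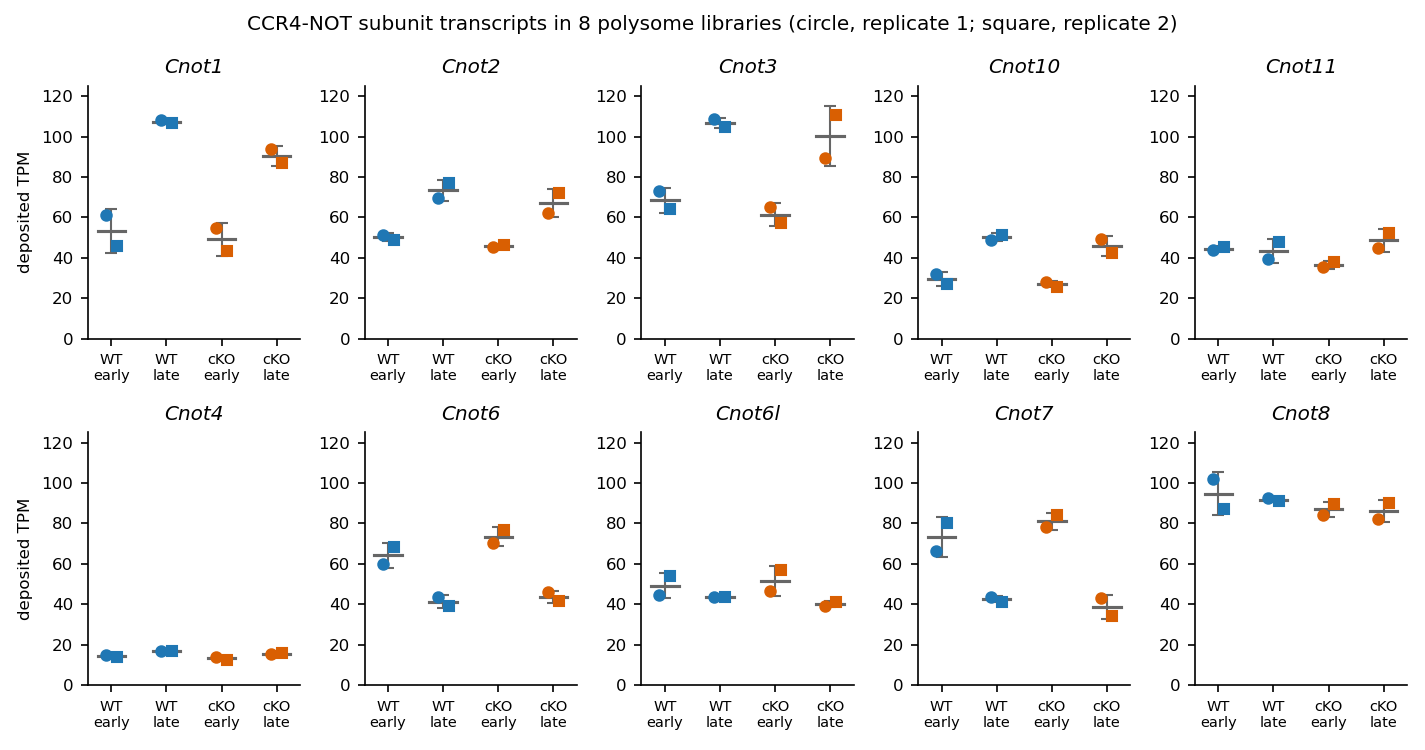
TPM of the 10 subunits in each of the 8 libraries (vertical axis, TPM), with 1 point per library (circle for replicate 1, square for replicate 2), blue for WT and orange for cKO. Horizontal lines are group means and bars are 1 SD (n = 2). The late libraries of Cnot1, Cnot2, Cnot3 and Cnot10 sit above the early ones, those of Cnot6, Cnot6l and Cnot7 sit below, and Cnot4 stays between 12.5 and 17.0 TPM throughout.

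Cnot1 (the scaffold), Cnot2, Cnot3 and Cnot10 were higher in late polysomes, and the nuclease messages Cnot6, Cnot6l and Cnot7 were lower. Cnot4, Cnot8 and Cnot11 did not pass. Averaged over genotypes, 7 of 10 subunits differed between late and early polysomes (4 higher, 3 lower) in the limma test on log2(scaled TPM + 1), where scaling by median ratios puts libraries on one level. Of all 16097 genes tested, 68.9% differed in this comparison (34.3% higher and 34.6% lower), so the number of subunits called is near the background. The subunits are described by role, and no difference between roles was tested. TPM is a share of the RNA in a pool, so these differences are in relative abundance between pools and not in amounts per gradient. The subunits' median log2 change was 0.09, against -0.01 over all tested genes.

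Cnot1, the scaffold, measured 60.9 and 45.6 TPM in early and 108 and 107 TPM in late polysomes of WT, and 54.8 and 43.2 TPM in early and 93.8 and 86.7 TPM in late polysomes of cKO. Every late library lay above every early library. The log2 change averaged over genotypes was 0.83 (SE 0.11; limma adjusted p = 0.000199), a 1.78-fold difference, and ranged from 0.68 to 1.08 over the 4 lysates.

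Of the pair on the C-terminal part of the scaffold, Cnot2 measured 51.5 and 48.6 TPM in early and 69.7 and 76.9 TPM in late polysomes of WT, and 45.5 and 46.1 TPM in early and 62.1 and 72.0 TPM in late polysomes of cKO. Its late libraries were again all above its early ones, with a log2 change of 0.42 (SE 0.070; limma adjusted p = 0.000722). Cnot3 measured 72.8 and 63.9 TPM in early and 109 and 105 TPM in late polysomes of WT, and 65.2 and 57.2 TPM in early and 89.6 and 111 TPM in late polysomes of cKO. The fractions did not overlap, and the log2 change was 0.55 (SE 0.083; limma adjusted p = 0.000441). Cnot3 is the subunit whose exons overlap other annotated genes most: 14.1% of its exonic bases are shared, with Leng1 on the opposite strand and the microRNA gene Mir3572 on the same strand. Whether counting used strand is not given in the sources used here.

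The module on the N-terminal part of the scaffold was split. Cnot10 measured 31.9 and 26.9 TPM in early and 48.8 and 51.5 TPM in late polysomes of WT, and 28.0 and 25.7 TPM in early and 49.2 and 42.4 TPM in late polysomes of cKO, which placed all late libraries above the early ones. Its log2 change was 0.64 (SE 0.088; limma adjusted p = 0.000269). Its module partner Cnot11 measured 43.6 and 45.3 TPM in early and 39.4 and 47.8 TPM in late polysomes of WT, and 35.2 and 38.0 TPM in early and 44.6 and 52.5 TPM in late polysomes of cKO. The fractions overlapped for Cnot11, and the log2 change of 0.07 (SE 0.086; limma adjusted p = 0.515) did not pass. Its 95% interval ran from -0.13 to 0.26, which leaves out the 0.64 of Cnot10.

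Among the nucleases, Cnot7 shifted most. It measured 66.1 and 80.1 TPM in early and 43.6 and 41.3 TPM in late polysomes of WT, and 78.1 and 83.9 TPM in early and 42.8 and 34.4 TPM in late polysomes of cKO. Every late library lay below every early one, and the log2 change was -1.03 (SE 0.10; limma adjusted p = 5.67e-05), a fold of 0.491. Its paralog Cnot8 measured 102 and 87.4 TPM in early and 92.6 and 91.0 TPM in late polysomes of WT, and 84.2 and 89.6 TPM in early and 82.3 and 90.0 TPM in late polysomes of cKO. These deposited values overlapped between fractions. After scaling, the late values of Cnot8 (81.6 to 88.3) lay just below its early ones (88.5 to 103.6). Its log2 change of -0.14 (SE 0.072; limma adjusted p = 0.110) did not pass, with a 95% interval of -0.31 to 0.02. Exons of Cnot7 share 5.0% of their bases with Zdhhc2 on the opposite strand, while those of Cnot8 overlap no other gene.

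Cnot6 measured 59.9 and 68.5 TPM in early and 43.5 and 39.0 TPM in late polysomes of WT, and 70.1 and 76.9 TPM in early and 45.9 and 41.5 TPM in late polysomes of cKO. Its late libraries were all below its early ones, with a log2 change of -0.80 (SE 0.088; limma adjusted p = 8.35e-05), a fold of 0.576. Cnot6l measured 44.7 and 53.8 TPM in early and 43.7 and 43.8 TPM in late polysomes of WT, and 46.4 and 56.8 TPM in early and 39.0 and 41.3 TPM in late polysomes of cKO. The fractions were separate but close, and the log2 change was -0.37 (SE 0.095; limma adjusted p = 0.00801). Cnot4, the ubiquitin ligase, measured 14.9 and 13.8 TPM in early and 17.0 and 16.6 TPM in late polysomes of WT, and 14.0 and 12.5 TPM in early and 15.3 and 15.7 TPM in late polysomes of cKO. Its deposited values did not overlap between fractions, but after scaling the log2 change of 0.11 (SE 0.082; limma adjusted p = 0.277) did not pass. In all, the deposited values of 8 of 10 subunits did not overlap between the 4 early and 4 late libraries, against 62.5% of all tested genes.

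Within WT, 6 of 10 subunits passed (54.8% of all tested genes did), 4 higher (27.1% of all) and 2 lower (27.7% of all) in late polysomes. Within cKO, 7 of 10 passed (58.1% of all), 4 higher (28.9% of all) and 3 lower (29.2% of all). The difference in count was Cnot6l, with a log2 change of -0.27 in WT (SE 0.13; limma adjusted p = 0.126) and -0.47 in cKO (SE 0.13; adjusted p = 0.0162). That difference between genotypes did not pass its own test (interaction -0.21, 95% interval -0.64 to 0.23; adjusted p = 0.9997). Without WT early replicate 2, the library with the conflicting tag, all 7 subunits called on average over genotypes kept their call, with log2 changes from 0.73 for Cnot1 to -0.96 for Cnot7. In WT, 5 of 10 then passed, since Cnot3 then had a log2 change of 0.44 (adjusted p = 0.0513). Without WT late replicate 2, Cnot2 lost its call in WT (0.37, adjusted p = 0.0531). Cnot6l lost its call in cKO without any one of 3 libraries: -0.45 without cKO late replicate 1 (adjusted p = 0.0620), -0.32 without cKO early replicate 2 (adjusted p = 0.111) and -0.48 without cKO late replicate 2 (adjusted p = 0.0529).

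Ribosome number rises with the length of the coding sequence, so the change of each subunit was set beside that of all tested genes in the same class of coding length (10 classes of equal size). Cnot1, with 7128 coding nt (chr8:95719451-95807464 on GRCm38, minus strand), lay above the upper quartile of its class, and 83.0% of the 1469 genes there had a lower change. Cnot2 (1620 nt), Cnot3 (2253 nt), Cnot4 (2130 nt), Cnot8 (876 nt), Cnot10 (2232 nt) and Cnot11 (1515 nt) lay within the middle 50% of their classes. Cnot6, Cnot6l and Cnot7 lay below the lower quartile. Cnot6 (1671 nt, chr11:49671503-49712723, minus strand) had a log2 change of -0.80 where the median of its class was 0.28, and only 1.57% of the 1468 genes there had a lower change. Cnot6l (1665 nt, chr5:96070333-96164171, minus strand) shares that class, and 13.4% of its genes were lower. Cnot7 (855 nt, chr8:40492540-40515847, minus strand) had -1.03 where the median of its class was -0.27, with 2.65% of 1469 genes lower. Cnot8, with a coding sequence of similar length (chr11:58104153-58118594, plus strand), was near the median of the same class, with 59.4% of the genes lower. Over the 10 subunits, change and coding length had a Spearman rho of 0.758, beside 0.634 over 14688 tested genes with a coding sequence; both are across genes of the same 8 libraries and are given as descriptions.

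**Figure D2:**
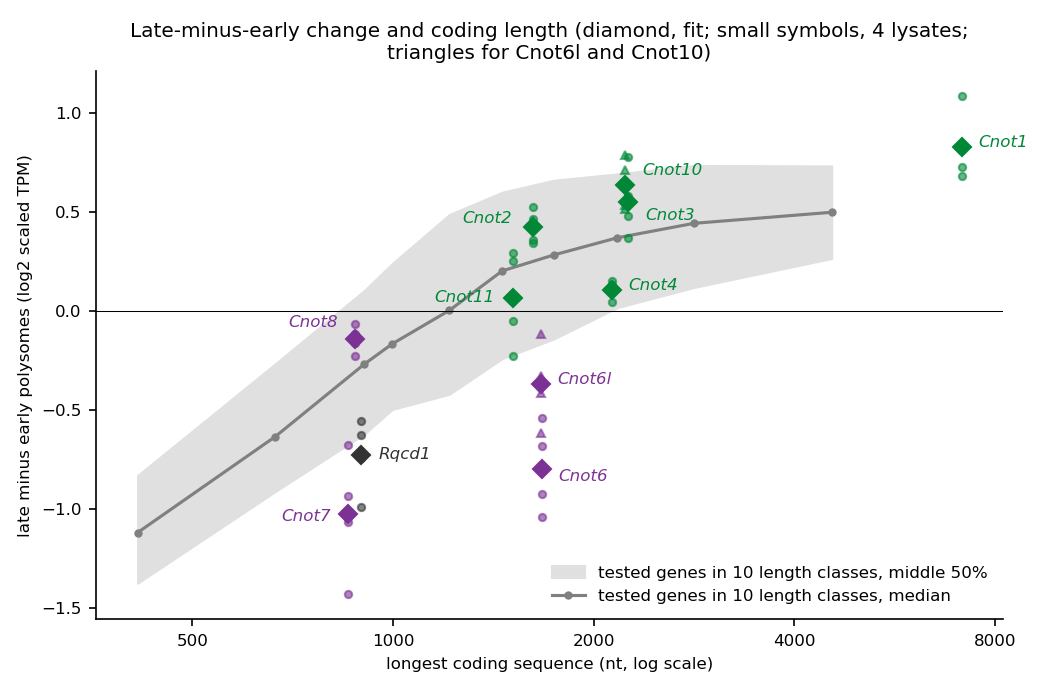
Late-minus-early log2 change in scaled TPM (vertical axis) against the longest coding sequence (horizontal axis, nt, log scale) for the 10 subunits and Rqcd1, with a diamond for the fitted change and small symbols for the 4 lysates (triangles for Cnot6l and Cnot10). Nucleases are purple, the other subunits green and Rqcd1 black. The grey line and band are the median and middle 50% of all tested genes in 10 classes of coding length. Cnot6 and Cnot7 sit well under the band at -0.80 and -1.03, and Cnot1, the longest, is highest at 0.83.

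CNOT9, the docking subunit, is listed in the table under its older symbol Rqcd1 and was not among the 10 genes. It measured 48.7 to 57.1 TPM in the 4 early and 30.8 to 36.9 TPM in the 4 late libraries, with a log2 change of -0.73 (SE 0.088; limma adjusted p = 0.000132). Its coding sequence of 897 nt puts it in the length class of Cnot7 and Cnot8, where 17.3% of genes had a lower change.

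Because paralogs exclude each other, the share of one in the summed TPM of its pair was compared between pools. The direction of a difference between pools does not depend on the lengths used for TPM, but the level of a share does. In WT early replicate 1, Cnot6l had 1911 inferred reads at 44.7 TPM, and Cnot6 had 1668 at 59.9 TPM. The shares thus do not settle which message of a pair prevails within a pool. Cnot7 made up 45.9% ± 4.42 (SD, n = 4 lysates) of Cnot7 plus Cnot8 in early polysomes and 31.3% ± 2.74 in late polysomes. The difference per lysate was -14.6 percentage points on average (SD 5.65), between -20.7 and -7.28, and the share was lower in late in 4 of 4 lysates. WT replicate 1 had the smallest difference, with shares of 39.3% and 32.0%, and cKO replicate 2 the largest, with 48.4% and 27.6%. Cnot6 made up 57.7% ± 1.72 of Cnot6 plus Cnot6l in early and 50.3% ± 2.85 in late polysomes. This difference was -7.45 points on average (SD 1.17), between -8.95 and -6.10, again lower in late in 4 of 4 lysates. An exact two-sided sign-flip permutation test over 4 lysates found 2 of 16 sign assignments at least as extreme for each pair. That is the fewest this design allows, so it cannot reach a p of 0.05. By group, the Cnot7 share was 43.6% ± 6.04 in WT early and 48.3% ± 0.172 in cKO early (SD, n = 2), and 31.6% ± 0.544 in WT late and 30.9% ± 4.67 in cKO late. The Cnot6 share was 56.7% ± 0.865 and 58.8% ± 1.85 in the early groups and 48.5% ± 1.99 and 52.1% ± 2.76 in the late groups, WT first. The genotype differences in shares were not tested.

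**Figure D3:**
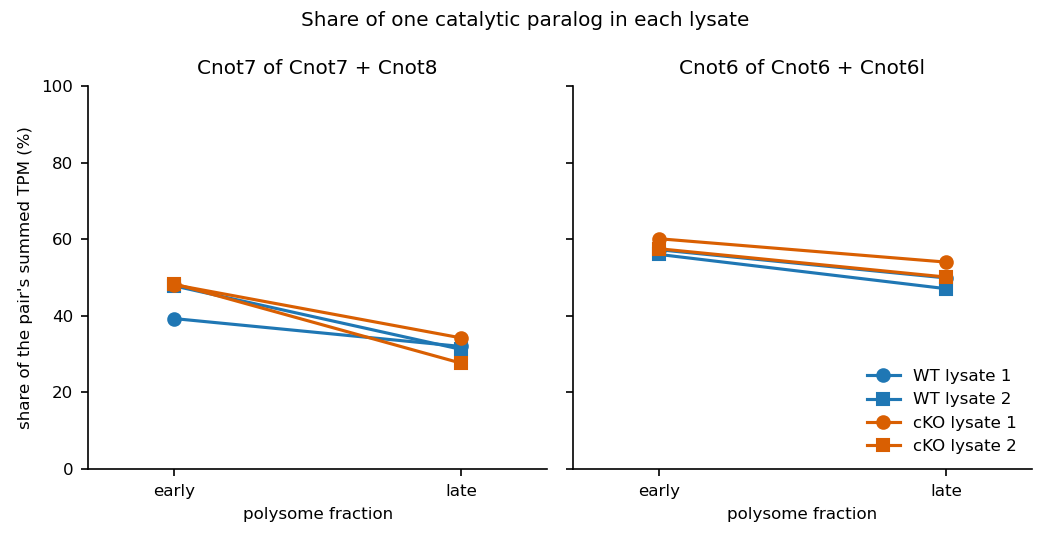
Share of Cnot7 in Cnot7 plus Cnot8 and of Cnot6 in Cnot6 plus Cnot6l (vertical axes, percent of summed TPM) in early and late polysomes, with a line joining the 2 libraries of each of the 4 lysates. All lines fall, from a mean of 45.9% to 31.3% and from 57.7% to 50.3%.

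Between cKO and WT, no subunit passed the threshold. In early polysomes 0 of 10 subunits differed between cKO and WT by limma (0.0435% of all tested genes did), in late polysomes 0 of 10 (0.0124% of all), and on the mean of early and late values of each lysate 0 of 10 (0.00621% of all). Without adjustment, 0, 0 and 1 of 10 had a p under 0.05, where 6.64%, 9.36% and 11.3% of all genes did. By voom on the inferred reads, 0 subunits passed in each comparison and 1, 0 and 1 had an unadjusted p under 0.05. The subunits' median log2 change between cKO and WT was -0.06 in early polysomes, -0.08 in late polysomes and -0.06 for lysate means, beside 0.0054, -0.00066 and 0.0014 over all tested genes.

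The intervals show what these libraries could resolve. Cnot6 had the largest change in early polysomes, at 70.1 and 76.9 TPM in cKO against 59.9 and 68.5 in WT, a log2 change of 0.25 (95% interval -0.03 to 0.53; limma adjusted p = 0.781). On lysate means it was the gene with an unadjusted p under 0.05 (log2 change 0.18, 95% interval 0.02 to 0.34; limma adjusted p = 0.406). Cnot7 had 0.21 in early (95% interval -0.13 to 0.55) and -0.10 in late (-0.44 to 0.23). Cnot1 had the largest change in late polysomes, -0.21 (-0.56 to 0.14). Its change in early polysomes, -0.06 (-0.41 to 0.29), ran from -0.25 to 0.14 over 18 alternatives and was negative in 16 of them. The lowest came without WT early replicate 2 and the highest without WT early replicate 1. Deposited values did not overlap between genotypes in 3 of 10 subunits in early polysomes (Cnot6 higher in cKO, Cnot2 and Cnot11 lower), against 38.4% of all tested genes, and in 4 of 10 in late polysomes (Cnot1, Cnot4, Cnot6l and Cnot8, all lower in cKO), against 40.6%. After scaling, the late values of Cnot8 overlapped between genotypes (88.3 and 85.6 in WT, 81.6 and 86.0 in cKO). Without WT early replicate 2, 0 of 10 passed in early polysomes by limma and 1 had an unadjusted p under 0.05. The log2 changes were then 0.35 for Cnot6, 0.35 for Cnot7, 0.26 for Cnot6l (0.12 with it), -0.17 for Cnot8 (-0.06 with it) and -0.19 for Cnot3 (-0.10 with it).

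The change between fractions did not depend on genotype beyond the threshold for any subunit: the interaction of genotype and fraction called 0 of 10 by limma (0.00621% of all tested genes) and 0 by voom. At an unadjusted p under 0.05 it held 1 of 10 by either tool, where limma gave 2.85% of all genes. With quantile normalization or without the mean-variance trend, limma gave 0 of 10. The 1 gene of the main test was Cnot11. Its late-minus-early log2 change was -0.23 and -0.05 in the WT lysates and 0.25 and 0.29 in the cKO lysates. The interaction was 0.41 (95% interval 0.02 to 0.80; limma unadjusted p = 0.0428, adjusted p = 0.9997). Cnot7 followed with -0.31 (95% interval -0.79 to 0.16). Without WT early replicate 2, the interaction was 0.38 for Cnot11 and -0.46 for Cnot7 and called 0 of 10, with 0 at an unadjusted p under 0.05.

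**Figure D4:**
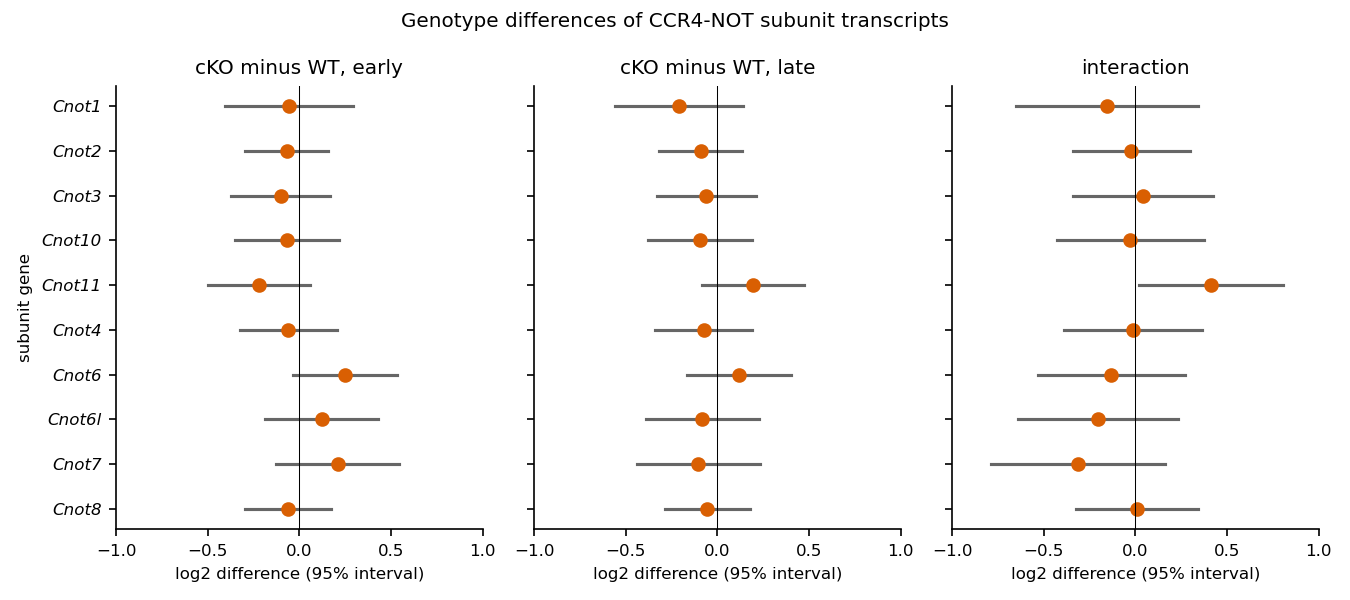
Log2 difference in scaled TPM for each subunit (horizontal axes) of cKO minus WT in early polysomes, in late polysomes, and for the interaction of genotype and fraction, with points for the limma estimate and lines for its unadjusted 95% interval. Every interval of the early and late panels spans 0, and in the interaction panel that of Cnot11 (0.02 to 0.80) does not.

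Other genes of the poly(A) and decay pathways were taken from lists of related factors. Besides Rqcd1, the component Tnks1bp1 passed, at 21.2 to 27.7 TPM in early and 42.2 to 46.8 TPM in late libraries (log2 change 0.73, limma adjusted p = 0.00025). Of 8 tested genes listed with other deadenylases, 6 were higher and 2 lower in late polysomes, with a median log2 change of 0.61. Of all tested genes, 34.3% were higher and 34.6% lower. Parn, a nuclear and cytoplasmic poly(A)-specific ribonuclease, measured 19.6 to 30.6 TPM in early and 47.7 to 57.2 TPM in late libraries (0.90, adjusted p = 0.00015), and Ccrn4l, which encodes nocturnin, had 0.68 (adjusted p = 0.000187). Angel2 (-0.43, adjusted p = 0.000676) and Pan3, the adaptor of the PAN2 nuclease (-0.33, adjusted p = 0.00388), were lower. Their shares called, 8 of 8, stand beside 68.9% of all genes.

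Of the adaptors that bring CCR4-NOT to mRNA, 8 of 27 tested were higher and 11 lower, with a median of -0.03. For these and the following lists, the shares over all tested genes are 34.3% higher and 34.6% lower. The antiproliferative Btg1, whose protein binds CNOT7 and CNOT8, was at 63.9 to 78.4 TPM in early and 35.0 to 42.3 TPM in late libraries (-0.99, limma adjusted p = 3.89e-05), and Btg4, of the same family, had -0.99 (adjusted p = 0.000302) at only 1.57 to 6.25 TPM. Tob2, another family member, was higher (0.65, adjusted p = 5.63e-05), as was Unk, a zinc-finger translational repressor (0.66, adjusted p = 0.000175). Mex3a itself had a log2 change of -0.39 on average (adjusted p = 0.0212), of -0.27 in WT (adjusted p = 0.222) and of -0.51 in cKO (adjusted p = 0.0351). Without WT early replicate 2, its average was -0.33 (adjusted p = 0.0759). Among miRNA silencing factors, 2 of 8 were higher and 1 lower (median 0.10): Tnrc6c (0.74, adjusted p = 7.41e-05) and Tnrc6b (0.58, adjusted p = 0.000214), which encode GW182 proteins that bind the complex, and Ago1 (-0.26, adjusted p = 0.0103).

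Of 12 translational repressors bound to CCR4-NOT, 5 were higher and 5 lower (median 0.00). They included Helz (0.53, limma adjusted p = 0.000529) and Gigyf1 (0.37, adjusted p = 0.0119) on one side, and the cap-binding Eif4e2 (-0.85, adjusted p = 6.18e-05) and the decapping enhancer Patl1 (-0.60, adjusted p = 0.000113) on the other. The list of decapping and 5′-to-3′ decay factors had the lowest median, -1.23, with 3 of 14 higher and 10 lower. Its extremes were Lsm7, at 98.8 to 114 TPM in early and 28.8 to 49.0 TPM in late libraries (-1.71, adjusted p = 3.54e-05), and Lsm5 (-1.57, adjusted p = 0.000226), both for small ring proteins that bind shortened tails, and on the other side the scaffold Edc4 (0.94, adjusted p = 0.00185) and Dcp1a (0.32, adjusted p = 0.00607). Apart from Rqcd1, genes of these lists were not set beside their coding length. Tested genes in the shortest length class (111 to 555 coding nt) had a median log2 change of -1.12. Of 16 exosome genes, 7 were higher and 6 lower (median 0.10), from the helicase Skiv2l (1.19, adjusted p = 0.000338) and the nuclease Exosc10 (0.75, adjusted p = 0.000236) to Exosc5 (-0.81, adjusted p = 0.000195) and Exosc1 (-1.11, adjusted p = 2.52e-05), which encode ring and cap components. Over these 7 lists, 68 of 87 genes differed between fractions, beside 68.9% of all tested genes. For genotype, 1 of 87 passed in early, late and lysate-mean comparisons, in each case Mex3a, while 5, 9 and 9 had an unadjusted p under 0.05, beside 6.64%, 9.36% and 11.3% of all tested genes. In the interaction 0 passed by limma and 1 had an unadjusted p under 0.05 (2.85% of all).

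Across the 8 libraries, subunits of like direction tracked each other. Log2 scaled TPM of Cnot1 and Cnot10 had a Pearson r of 0.98, and that of Cnot6 and Cnot7 one of 0.98, while Cnot3 and Cnot7 had -0.98 and Cnot2 and Cnot6 -0.98. These points share libraries and are mostly set by the fraction, so they are descriptions. The mean over the 10 subunits was almost flat, between 5.65 and 5.72 on the log2 scale, as subunits higher and subunits lower in late polysomes offset each other. The 5 genes whose profile was most like this mean, of 12806 compared at a mean of at least 5 TPM, were Diexf (r = 0.949), Dyx1c1 (0.939), Mga (0.938), Rps6ka5 (0.935) and Cd1d1 (0.930), against a median r of 0.04. With so small a range in the mean, the order of these genes rests on small differences.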

How the data were processed

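The authors deposited 1 table of TPM for 21765 gene symbols in 8 libraries, each column summing to 1000000. The submitters' processing notes name FastQC, cutadapt, STAR, DESeq2 and the build mm10, without roles or versions. The counter and annotation are not given in the sources used here. Groups and replicate numbers came from the titles. The Cre line is not reported here. Libraries were brought to one level by median ratios (factors 0.931 to 1.06). Tests used limma 3.58.1 in R 4.3.3 on log2(scaled TPM + 1), a scale that understates the change of low genes. All 4 groups were fitted together with a mean-variance trend over the 16097 genes whose deposited TPM averaged 1 or more. In each of 7 comparisons, two-sided p-values were adjusted over these genes (Benjamini-Hochberg, threshold 0.05). Since both libraries of a lysate share their source, genotype was also compared between lysate means (2 WT and 2 cKO).

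Whole reads were inferred for all 19783 genes above 0 in at least 2 libraries (100%, tolerance 0.001). They give the depth behind each value and served an alternative test with voom from limma. Both the inference and the fit were tested on simulated data. Coding lengths and sequences came from GENCODE M21 on GRCm38 (mm10), taking the longest coding sequence per symbol, and paralogs were aligned with Biopython 1.88. Figures were drawn with matplotlib 3.10.9.

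Early and late libraries share lysate names. After removing group means, the libraries of a lysate correlated at 0.0862 across genes in WT and 0.0502 in cKO, and the lysate was used as a block in an alternative. Named genes were the 10 subunits, Mex3a and Rqcd1. From each related list they also included any gene passing in a genotype comparison and the 2 highest and 2 lowest passing between fractions, and from the whole table the 5 genes most like the subunits' mean. The subunits and lists were chosen with earlier results of these data known. The series' design text describes sorted cells of another experiment and was not used. Alternatives changed the pseudocount (0.1 or 0.5), the filter (none, or an average of 5 TPM), the scaling (none, or quantiles), the trend (none), the libraries (each left out, or only those compared), the block (lysate or replicate number, or a random effect for lysate) and the test (voom).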

Additional observations from a re-analysis of the deposited data

Results flagged for a closer look

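The late-minus-early change of Cnot11 went down in both WT lysates (log2 -0.23 and -0.05) and up in both cKO lysates (0.25 and 0.29), a difference between genotypes of 0.41. The test of this difference, the limma interaction, did not pass after adjustment (unadjusted p = 0.0428, adjusted p = 0.9997). Over the alternatives it ranged from 0.29 to 0.54. With TPM as deposited, WT replicate 2 no longer went down (late over early ratio 1.05), and the change within cKO passed the threshold (log2 change 0.39, adjusted p = 0.0267).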

How the results depend on the processing

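The number of subunits called between fractions stayed at 7 in all 17 alternatives for the average over genotypes, at 5 to 6 in 18 alternatives for WT and at 6 to 8 in 18 for cKO; leaving out each library gave 7, 5 to 6, and 6 to 7. No subunit passed in a genotype or interaction comparison under any alternative run. With 1 library left out, the lone library of its group is assumed to vary like the others. Leaving out 1 lysate moved the Cnot7 share difference between -17.1 and -12.6 points and that of Cnot6 between -7.90 and -6.95. With the lysate as a replicate block, 7 subunits passed on average, 6 in WT, 7 in cKO and 0 in the interaction, the same counts as without it. With the replicate number as a block, 0 subunits passed in the genotype comparisons, but 82 genes of the whole table passed on lysate means against 1 without it; deviations of same-numbered WT and cKO libraries correlated at 0.331 in early and 0.142 in late, and no label ties the numbers across genotypes. Whole-table genotype counts moved with the method: voom called 12 genes in early polysomes, 15 in late polysomes and 58 for lysate means against 7, 2 and 1, lysate as a random effect called 34, and over all alternatives the counts ran from 0 to 12 in early, 0 to 15 in late, 0 to 82 for lysate means and 0 to 6 in the interaction, where the main analysis gave 1 and no filter on low values gave 6. Among libraries left out, cKO late replicate 1 moved the late count to 13, and WT early replicate 1 moved the early count to 0. Without the lysate cKO replicate 1, the lysate-mean count was 10. The cause was not tested. With TPM as deposited, the median of all genes shifted by 0.09 between fractions. With 2 lysates per genotype, the intervals on genotype are wide beside the differences seen.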
